A study of Mus musculus with 20 samples.

Results

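The genes for the acetylcholine receptors of the mouse cerebral cortex were followed across the neocortex and hippocampus of mice with and without the APP family. They are the 5 muscarinic receptors (Chrm1 to Chrm5), 4 subunits of nicotinic receptors (Chrna4, Chrna5, Chrna7 and Chrnb2) and Ache, which encodes acetylcholinesterase. The 10 genes were taken by their symbols from the 24421 genes counted in every library, and each symbol was found in all 20 libraries. No expression value entered the choice of the rows.

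Poly(A) RNA was measured by single-end sequencing in mice at 3 months of age, with 5 libraries in each of 4 groups: control neocortex, cTKO neocortex, control hippocampus and cTKO hippocampus. The cTKO mice are APP/APLP1/APLP2 conditional triple knockouts, in which floxed alleles of all these genes are cut by Camk2a-Cre, so that the genes are lost after birth in excitatory neurons of the forebrain and kept in other cells. The controls, labelled wild type, are littermates that carry the same floxed alleles without Cre and were kept on a mixed C57BL/6J and 129 background, both sexes being used. RNA was extracted with a different RNeasy kit in each region, so region and kit cannot be told apart in any comparison of hippocampus with neocortex.

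Acetylcholine reaches the cortex and hippocampus mainly from neurons of the basal forebrain, whose cell bodies lie outside both tissues. Muscarinic receptors are receptors coupled to G proteins: those encoded by Chrm1, Chrm3 and Chrm5 act through Gq and phospholipase C, and those encoded by Chrm2 and Chrm4 act through Gi and lower cyclic AMP. Nicotinic receptors are cation channels built of 5 subunits. Those built of the subunits followed here are mainly α4 with β2, to which α5 can be added as an accessory subunit, or α7 alone. Acetylcholinesterase ends the signal by splitting acetylcholine in the extracellular space.

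Total counts per library ranged from 12169474 to 25331954, and a floor of 3 counts stood at 0.123 to 0.247 CPM (counts scaled to a common library size), which covers counting error only. The targeted genes went with the labels: App was at 23.2% of the control mean in cTKO neocortex and 29.1% in cTKO hippocampus, and Aplp1 and Aplp2 were at 26.3% to 42.1%, with no overlap between genotypes. Of the libraries, 2 stood apart by a set of 8 embryonic genes, which summed to 609 CPM in cTKO neocortex library 5 and 384 CPM in cTKO hippocampus library 4 against at most 3.08 CPM in each of the others. Values of the 10 genes by genotype or by region that moved by over 1.5 times or changed sign without 1 of these libraries are given both ways. These are whole tissues, so fewer cells of a type and less RNA per cell cannot be told apart. P values measure the spread between libraries of a group. The study collected both regions from 5 cTKO and 5 littermate control mice, but nothing in the labels says which libraries share a mouse. The main tests take the regions as independent, so a value that goes the same way in both regions is not an independent repeat.

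The genes are spread over 8 chromosomes (RefSeq spans on GRCm38.p6, all of protein-coding genes). Of the muscarinic genes, Chrm1 lies at chr19:8664005-8683606, Chrm2 at chr6:36387991-36528638, Chrm3 at chr13:9875486-10361062, Chrm4 at chr2:91922189-91929835 and Chrm5 at chr2:112478733-112536361. The nicotinic genes Chrna4, Chrna5, Chrna7 and Chrnb2 lie at chr2:181022311-181043579, chr9:54980827-55011420, chr7:63098692-63212526 and chr3:89753448-89764632, and Ache at chr5:137288247-137294466.

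The promoters of 4 of the genes are shown because these genes carry the regional and the genotype differences described further on: Chrna4 and Chrm2 were lower in hippocampus, Chrna7 was higher there, and Ache was higher in most cTKO libraries. Each line gives the 250 bases before an annotated transcript start from RefSeq on GRCm38.p6, written 5′ to 3′ on the strand of the gene. Capitals mark every match on either strand to 6 motifs. GGGCGG is the GC box read by factors of the SP family, CACGTG the E-box of helix-loop-helix factors, and GCGGGGGCG the site of the zinc finger factor EGR1. TGACGTCA is the cAMP response element, CCAAT names its own box, and TATAAA stands for the core promoter element of that name. Windows were found for 9 of the 10 genes, Chrm1 being the other.
Chrna4: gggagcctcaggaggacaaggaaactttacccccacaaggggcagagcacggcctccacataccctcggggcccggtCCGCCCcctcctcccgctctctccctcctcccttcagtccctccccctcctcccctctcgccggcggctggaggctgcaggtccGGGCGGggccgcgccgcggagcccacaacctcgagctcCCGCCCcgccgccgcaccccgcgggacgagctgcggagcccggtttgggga
Chrm2: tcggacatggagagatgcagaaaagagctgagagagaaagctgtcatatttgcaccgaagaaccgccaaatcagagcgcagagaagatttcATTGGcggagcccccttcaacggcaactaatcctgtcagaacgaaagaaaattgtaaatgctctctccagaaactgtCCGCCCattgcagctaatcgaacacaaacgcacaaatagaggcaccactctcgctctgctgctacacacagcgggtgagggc
Chrna7: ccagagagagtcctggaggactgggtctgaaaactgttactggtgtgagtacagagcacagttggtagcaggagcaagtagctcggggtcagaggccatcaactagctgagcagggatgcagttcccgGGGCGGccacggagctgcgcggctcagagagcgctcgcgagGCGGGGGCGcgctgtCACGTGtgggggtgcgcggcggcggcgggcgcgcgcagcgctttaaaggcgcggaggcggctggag
Ache: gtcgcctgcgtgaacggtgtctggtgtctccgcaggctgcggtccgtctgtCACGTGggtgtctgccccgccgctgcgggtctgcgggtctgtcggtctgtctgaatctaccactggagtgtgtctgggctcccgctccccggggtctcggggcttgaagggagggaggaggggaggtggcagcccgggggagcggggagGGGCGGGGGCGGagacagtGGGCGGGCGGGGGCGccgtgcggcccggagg

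The Chrna4 window lies at chr2:181039178-181039427 on the minus strand, inside the span that RefSeq gives the gene, and holds 3 GC boxes and 24 CpG dinucleotides at a GC content of 74.4%. The Chrm2 window, at chr6:36387834-36388083 on the plus strand, holds 1 GC box and 1 CCAAT box with 12 CpG at 50% GC. It runs past the start of the RefSeq span of the gene at 36387991. The Chrna7 window, at chr7:63212527-63212776 on the minus strand, holds 1 GC box, 1 E-box and 1 EGR1 site with 25 CpG at 67.2% GC. That of Ache, at chr5:137288004-137288253 on the plus strand, holds 4 GC boxes, 1 E-box and 2 EGR1 sites, the latter overlapping the GC boxes, with 25 CpG at 73.6% GC. It runs past the RefSeq start of the gene at 137288247, and the bases after it were not found in a GENCODE vM21 transcript of Ache. Over 32851 promoter windows of the same length the median was 52.4% GC with 6 CpG. Of those windows, 32.7% held a GC box, 33.8% a CCAAT box, 12.4% a TATA box, 1.55% a cAMP response element, 6.02% an E-box and 2.57% an EGR1 site. These matches describe the letters of the windows and nothing about binding.

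**Figure D1:**
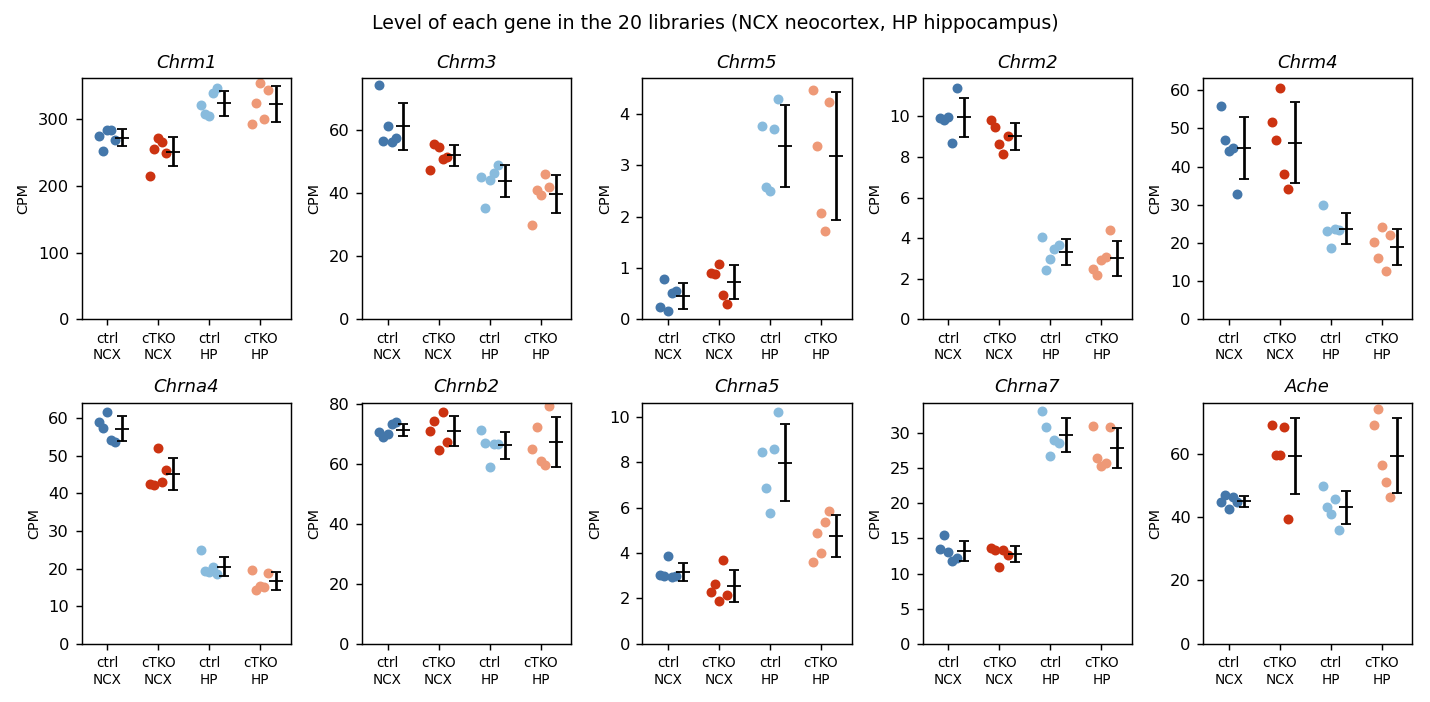
Level of each of the 10 genes (CPM, y axis from 0) in control (ctrl) and cTKO neocortex (NCX) and hippocampus (HP), with 1 point per library and the mean ± SD of 5 libraries beside the points. Chrm5, Chrna5 and Chrna7 sit higher in hippocampus, Chrm2, Chrm3, Chrm4 and Chrna4 higher in neocortex, and Chrnb2 at a like level in all 4 groups.

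Levels were first compared between the genes, per length, as RPKM (CPM divided by exon length in kilobases). Chrm1, the main postsynaptic muscarinic receptor of cortical pyramidal neurons, had the highest level in every group, at 42.0 ± 2.05 RPKM (SD, n = 5) in control neocortex and 49.9 ± 2.86 RPKM in control hippocampus. Chrm4 came second in every group on this scale and is taken up below, since its length is in doubt. Of the other genes in control neocortex, Chrna4 followed at 11.4 ± 0.668 RPKM, then Chrm3 at 9.80 ± 1.21, Ache at 9.76 ± 0.379 and Chrnb2 at 8.53 ± 0.246. The libraries of Chrna4 and Chrm3 overlapped, as did those of Chrm3 and Ache. Chrna7 at 2.93 ± 0.325 RPKM, Chrm2 at 1.64 ± 0.160, Chrna5 at 1.01 ± 0.127 and Chrm5 at 0.283 ± 0.155 were the lowest there.

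In control hippocampus the order below Chrm1, with Chrm4 set aside, was Ache at 9.35 ± 1.13 RPKM, Chrnb2 at 7.91 ± 0.524, Chrm3 at 7.05 ± 0.812 and Chrna7 at 6.59 ± 0.532, each overlapping the next in its libraries. Chrna4 stood at 4.08 ± 0.523 RPKM, Chrna5 at 2.55 ± 0.551, Chrm5 at 2.11 ± 0.495 and Chrm2 at 0.548 ± 0.104, with Chrna5 and Chrm5 overlapping. Chrm4 came out at 31.2 ± 5.68 RPKM in control neocortex and 16.5 ± 2.83 in control hippocampus, but the annotation used for lengths holds only the coding exon of Chrm4 and of Chrm5, which raises both. With coding length for every gene Chrm1 was still the highest and Chrm2, Chrna5 and Chrm5 the lowest 3 in each group, while 25 of the 40 ranks moved. In control neocortex the means on that scale were 197 for Chrm1, 34.7 for Chrm3, 31.3 for Chrm4, 30.4 for Chrnb2 and 28 for Chrna4.

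As a share of all muscarinic receptor counts, Chrm1 made up 70.1% ± 2.63 in control neocortex, 69.9% ± 2.88 in cTKO neocortex, 81.3% ± 1.19 in control hippocampus and 83.2% ± 0.680 in cTKO hippocampus. Chrm3 held 15.7% ± 1.32 and Chrm4 11.5% ± 1.81 in control neocortex, against 11.1% ± 0.869 and 5.97% ± 0.939 in control hippocampus. Chrm2 went from 2.57% ± 0.329 to 0.830% ± 0.126 and Chrm5 from 0.119% ± 0.0696 to 0.837% ± 0.148 between the same groups. The muscarinic counts of hippocampus were thus more heavily those of Chrm1, with no library of one region inside the range of the other.

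**Figure D2:**
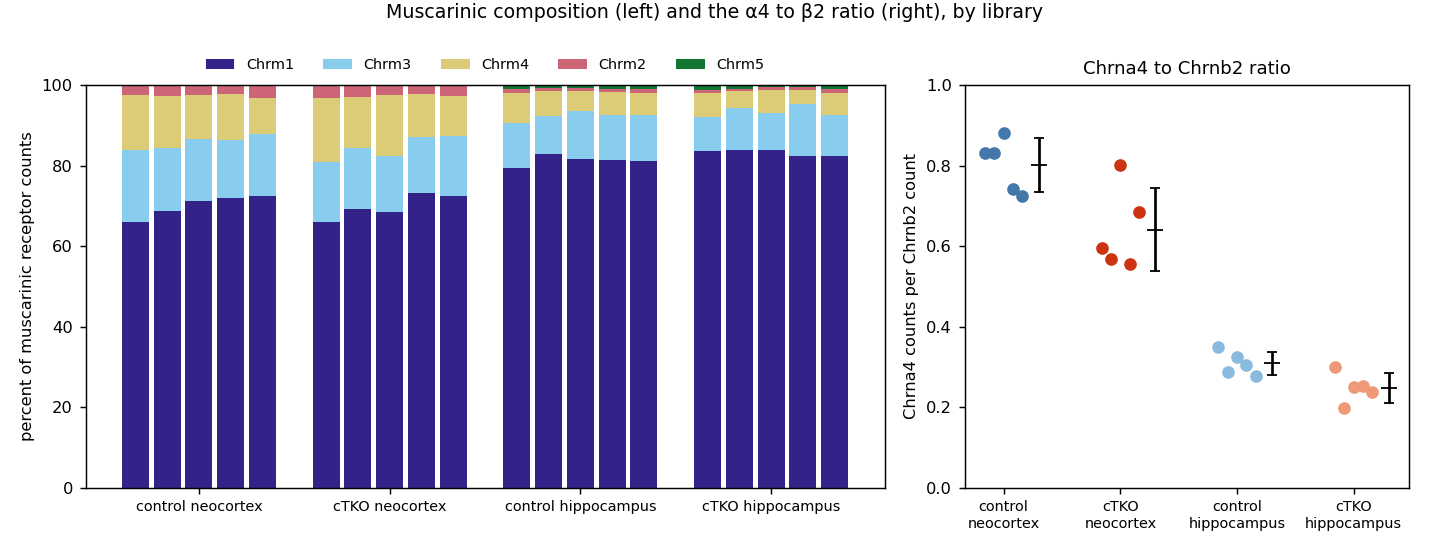
Left, percent of the muscarinic receptor counts of each library (y axis) that fell on Chrm1 to Chrm5, 1 bar per library, with Chrm1 between 66.1% and 73.1% in neocortex and between 79.5% and 83.8% in hippocampus. Right, Chrna4 counts per Chrnb2 count in each library with the mean ± SD of 5 libraries, from 0.556 to 0.880 in neocortex and from 0.197 to 0.350 in hippocampus.

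The genotype comparison asked whether loss of the APP family in excitatory neurons goes with a change in receptor mRNA. In the neocortex, 0 of the 9 genes tested passed the FDR threshold of 0.05 by the quasi-likelihood test of edgeR, beside 0.188% of all 13843 genes tested. An unadjusted p under 0.05 was reached by 3 of the 9 (Chrna4, Chrm3 and Ache), beside 10.4% of all genes. In the hippocampus 0 of 10 passed, beside 0.489% of all 13702 genes, and 3 of 10 (Chrna5, Ache and Chrna4) had an unadjusted p under 0.05, beside 12% of all genes. With DESeq2 and with edgeR's likelihood ratio and exact tests, 1 of the genes (Chrna4) passed in neocortex and 2 (Chrna5 and Ache) in hippocampus. Those tools also called more of all genes: DESeq2 called 1.6% in neocortex and 2.42% in hippocampus, the likelihood ratio test 1.21% and 1.89%, and the exact test 1.18% and 1.88%.

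Chrna4, the α subunit of the main high-affinity nicotinic receptor of the brain, gave the smallest p of the set in neocortex. Its level was 59.0, 57.5, 61.7, 54.3 and 53.6 CPM in the control neocortex libraries and 42.4, 42.3, 52.0, 42.9 and 46.2 CPM in the cTKO neocortex libraries. All 5 cTKO libraries were below all 5 controls, which 1.43% of the genes tested also showed in that direction. The log2 fold change was -0.34 (SE 0.072, 95% interval -0.489 to -0.181) with an FDR of 0.0933 in edgeR, and the exact permutation p of 0.00794, two-sided and unadjusted, is the smallest that 5 against 5 libraries can give. Without cTKO neocortex library 3, the highest of the cTKO group, the FDR was 0.0183 at a log2 fold change of -0.387. That fit called 120 of all genes, against 26 with every library. It was the only fit with 1 library left out that gave Chrna4 an FDR under 0.05, the highest being 0.222. Over the settings other than leaving a library out the FDR lay between 0.00311 and 0.212.

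In hippocampus the same gene stood at 25.0, 19.3, 19.2, 20.5 and 18.5 CPM among controls and 19.5, 14.3, 15.3, 15.1 and 18.9 CPM in cTKO mice. Here the genotypes overlapped, with the highest cTKO libraries, 1 and 5, inside the control range. Fitted across all genes, the log2 fold change was -0.30 (SE 0.11, FDR = 0.314 in edgeR; exact permutation p = 0.0556).

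Chrnb2, which encodes the β2 partner of α4, did not follow Chrna4. It was at 71.5 ± 2.06 CPM in control neocortex and 71.0 ± 5.06 in cTKO neocortex, and the 95% interval of its log2 fold change ran from -0.127 to 0.125. In hippocampus it was at 66.3 ± 4.39 CPM among controls and 67.5 ± 8.30 in cTKO mice, with an interval of -0.156 to 0.208. Without the libraries with embryonic genes its log2 fold change went from -0.00127 to 0.00854 in neocortex and from 0.0261 to 0.0618 in hippocampus. The number of Chrna4 counts per Chrnb2 count was accordingly 0.802 ± 0.0664 in control and 0.641 ± 0.103 in cTKO neocortex, and 0.309 ± 0.0293 in control and 0.248 ± 0.0365 in cTKO hippocampus, with overlapping libraries in both regions. In GENCODE vM21 the gene models of Chrnb2 and of Adar on the opposite strand share 16.3% of the exon length of Chrnb2. Their RefSeq spans overlap by 8 bases. Whether the counting used strand, and which annotation it used, is not given in the sources used here.

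Chrna5, the accessory subunit, showed the largest size of any difference between genotypes among the 10 genes, in hippocampus. Control hippocampus libraries held 8.44, 6.87, 5.77, 8.60 and 10.2 CPM and cTKO hippocampus libraries 3.61, 4.90, 4.0, 5.36 and 5.84 CPM. The highest cTKO library, at 5.84, was just above the lowest control, at 5.77, and every other cTKO library was below every control. The log2 fold change was -0.75 (SE 0.18, 95% interval -1.14 to -0.364) with an FDR of 0.0993 in edgeR and an exact permutation p of 0.0159. These values rest on 88 to 196 counts per library, and the FDR ranged from 0.00792 to 0.107 over other settings and from 0.0594 to 0.233 when 1 library was left out.

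Markers of neighbouring tissue also differed between the genotypes in hippocampus. The sum of 5 thalamus markers was 90.5 to 94.1 CPM in controls and 66.2 to 90 CPM in cTKO mice, without overlap, and 3 of the 5 genes had an unadjusted p under 0.05. Of 5 choroid plexus markers 4 had an unadjusted p under 0.05, with a median log2 fold change of -1.56. Their sums overlapped widely, at 72.2 to 2650 CPM in controls and 108 to 584 CPM in cTKO mice. Of all genes, 12% had an unadjusted p under 0.05, and none in either list passed an FDR of 0.05 in edgeR. Their part in the hippocampal values of Chrna5, Chrna4, Ache and the other genes was not tested.

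In neocortex Chrna5 was scarcer, at 3.16 ± 0.396 CPM among controls and 2.53 ± 0.714 in cTKO mice, and the log2 fold change was -0.30 (SE 0.20, FDR = 0.644 in edgeR). The test of a difference between the regions did not pass (difference of the log2 fold changes -0.44, 95% interval -0.997 to 0.112). Chrna5 overlaps the neighbouring Chrna3 over 1304 bases in RefSeq, while in GENCODE vM21 it overlaps no counted gene. Chrna3 itself had 5 to 22 counts per hippocampal library, at 0.689 ± 0.245 CPM among controls and 0.382 ± 0.142 CPM in cTKO mice, too few for the test across genes. How reads of the shared stretch were assigned was not tested.

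Chrna7, whose product forms the homomeric α7 receptor that binds α-bungarotoxin, differed little between genotypes. It was at 13.2 ± 1.47 CPM in control and 12.8 ± 1.14 CPM in cTKO neocortex, with an interval of -0.254 to 0.176 for the log2 fold change. In hippocampus it was at 29.7 ± 2.40 CPM among controls and 27.9 ± 2.78 CPM in cTKO mice, with an interval of -0.272 to 0.0923.

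Among receptors coupled to Gq, Chrm3 was the one with separate genotypes in neocortex. Control libraries held 74.3, 56.7, 61.3, 56.4 and 57.7 CPM and cTKO libraries 47.5, 55.7, 54.8, 51.0 and 51.6 CPM. The nearest libraries, at 56.4 and 55.7 CPM, were less than 1 CPM apart, and the first control library stood well above the other 4. Its log2 fold change was -0.23 (SE 0.080, FDR = 0.326 in edgeR; exact permutation p = 0.00794). In hippocampus Chrm3 was at 44.1 ± 5.08 CPM among controls and 39.7 ± 5.98 CPM in cTKO mice (log2 fold change -0.15, SE 0.11, FDR = 0.669), with overlapping libraries, and the log2 fold change was -0.0673 without cTKO hippocampus library 1.

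Chrm1 was measured with the most counts, 3359 to 8589 per library, and so with narrow intervals. It was at 272 ± 13.3 CPM in control and 251 ± 22.4 CPM in cTKO neocortex, a log2 fold change of -0.11 with an interval of -0.252 to 0.0342. In hippocampus the means were 324 ± 18.6 and 323 ± 26.8 CPM, with an interval of -0.157 to 0.146, and the log2 fold change went from -0.00565 to 0.014 without cTKO hippocampus library 4. Changes of the size seen for Chrna5 in hippocampus lie outside both intervals.

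Chrm5, the rarest of the 10 genes in neocortex, had 2 to 20 counts per neocortical library and did not pass the filter on low counts there. Control neocortex held 0.246, 0.776, 0.165, 0.521 and 0.556 CPM and cTKO neocortex 0.903, 0.881, 1.07, 0.477 and 0.297 CPM, so that the highest 3 libraries were cTKO and the genotypes overlapped (exact permutation p = 0.190). With no filter the log2 fold change was 0.68 (SE 0.45, FDR = 0.672 in edgeR). A difference was thus neither shown nor excluded at this depth. In hippocampus the gene was at 3.37 ± 0.791 CPM among controls and 3.17 ± 1.24 CPM in cTKO mice, with a wide interval of -0.673 to 0.514. Its log2 fold change went from -0.0796 to 0.0704 without cTKO hippocampus library 4.

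For the receptors coupled to Gi, Chrm2 was at 9.95 ± 0.969 CPM in control and 9.02 ± 0.662 CPM in cTKO neocortex (log2 fold change -0.13, SE 0.10, FDR = 0.704), and at 3.32 ± 0.632 and 3.01 ± 0.856 CPM in hippocampus (log2 fold change -0.14, SE 0.21, FDR = 0.865). The hippocampal value ran from -0.317, without cTKO library 5, to -0.0445, without cTKO library 2. Chrm4, which is abundant in the striatum, was at 55.8, 47.1, 44.0, 44.8 and 32.9 CPM in control neocortex and 51.6, 46.9, 60.7, 38.1 and 34.1 CPM in cTKO neocortex. The range within a genotype was far wider than the difference between the means (log2 fold change 0.05, SE 0.15, FDR = 0.948; 0.127 without cTKO library 5). In hippocampus it was at 23.8 ± 4.07 CPM among controls and 19 ± 4.66 CPM in cTKO mice (log2 fold change -0.32, SE 0.17, FDR = 0.483), again with overlap. Without cTKO hippocampus library 4, the one with embryonic genes and the lowest in Chrm4 at 12.6 CPM, it was -0.21 (FDR = 0.613 in edgeR).

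Striatal marker genes varied between the neocortical libraries as well, in part with Chrm4. The sum of 6 such genes was 440, 443, 414, 490 and 340 CPM in control neocortex and 508, 680, 577, 374 and 451 CPM in cTKO neocortex, in the same library order. Library 5 of the controls was lowest in both, and the 3 cTKO libraries highest in Chrm4 were also the 3 highest in striatal genes. The order was not the same otherwise: control library 4 was the highest control in striatal genes but not in Chrm4, cTKO library 2 was the highest of all in striatal genes at 46.9 CPM of Chrm4, and the lowest cTKO library was 4 in striatal genes and 5 in Chrm4. In hippocampus the sum was 84.7 to 146 CPM over both genotypes. The part of striatal tissue in the Chrm4 values was not tested.

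**Figure D3:**
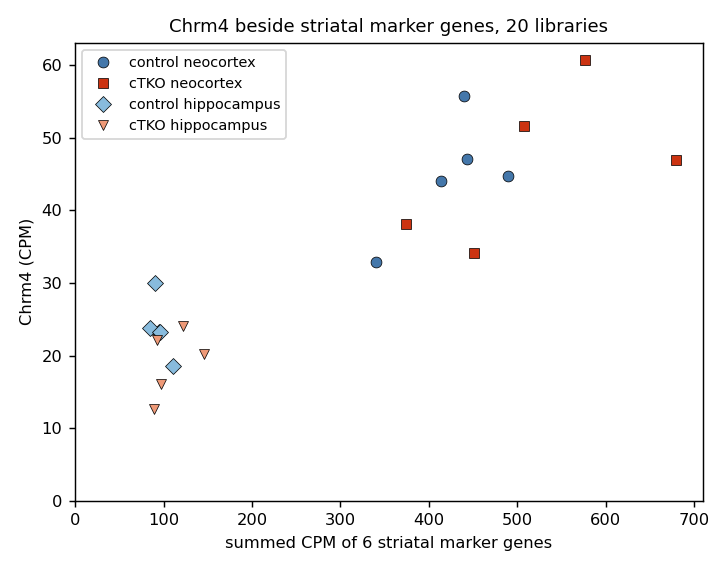
Chrm4 level (CPM, y axis) against the summed CPM of 6 striatal marker genes (x axis), 1 point per library with groups by colour and shape. Neocortical libraries lie at 340 to 680 CPM of striatal genes and 32.9 to 60.7 CPM of Chrm4, hippocampal libraries at 84.7 to 146 and 12.6 to 30.0 CPM.

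Ache was the 1 gene of the 10 whose values were higher in cTKO mice in both regions with an unadjusted p under 0.05 in each. In neocortex it was at 44.9, 47.0, 42.5, 46.3 and 44.8 CPM among controls and 69.3, 59.7, 59.8, 68.5 and 39.6 CPM in cTKO mice. Libraries 1 to 4 of the cTKO group were above every control, and library 5, the one with the embryonic genes, was below every control. The log2 fold change was 0.41 (SE 0.12, 95% interval 0.157 to 0.653) with an FDR of 0.204 in edgeR and an exact permutation p of 0.0476. Without that library the log2 fold change was 0.511 (SE 0.067) and the FDR 0.00293, in a fit that called 133 of all genes against 26 with every library. It was the only fit with 1 library left out that gave Ache an FDR under 0.05, the highest being 0.408. Over other settings the FDR ran from 0.0619 to 0.314. Markers of inhibitory neurons summed to 1150 to 1190 CPM in cTKO libraries 1 to 4, to 902 CPM in library 5 and to 887 to 1020 CPM in controls. Of these 6 genes 4 had a log2 fold change above 0 and 2 below. Hippocampal granule and pyramidal markers summed to 251 to 519 CPM in cTKO neocortex, lowest in library 5, and 195 to 235 CPM in controls. Of the 4 tested, 2 were above 0, 1 of them called, and 2 below. Excitatory markers summed to 8230 to 10600 CPM and 9440 to 10500 CPM. The part of these lists in the neocortical values of Ache, Chrna4 and Chrm3 was not tested.

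In hippocampus Ache was at 50, 43.2, 41.0, 45.8 and 36.1 CPM among controls and 69.1, 74.3, 56.4, 51.3 and 46.3 CPM in cTKO mice. Of the cTKO libraries 4 were above every control, and library 5 was within the control range. Fitted across all genes, the log2 fold change was 0.46 (SE 0.13, 95% interval 0.180 to 0.741) with an FDR of 0.165 in edgeR and an exact permutation p of 0.0159. Over other settings the FDR ran from 0.0386 to 0.184, and from 0.0594 to 0.336 when 1 library was left out. Bche, which encodes the related butyrylcholinesterase, was at 9.20 ± 2.51 CPM in control and 6.87 ± 1.03 CPM in cTKO hippocampus (log2 fold change -0.42, SE 0.18, FDR = 0.384), so that the Ache counts per Bche count were 4.89 ± 0.942 in controls and 8.81 ± 2.20 in cTKO mice without overlap. In neocortex Bche was at 6.84 ± 1.22 and 6.57 ± 1.06 CPM, and the ratio of 6.73 ± 1.03 in controls overlapped that of 9.28 ± 2.81 in cTKO mice.

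**Figure D4:**
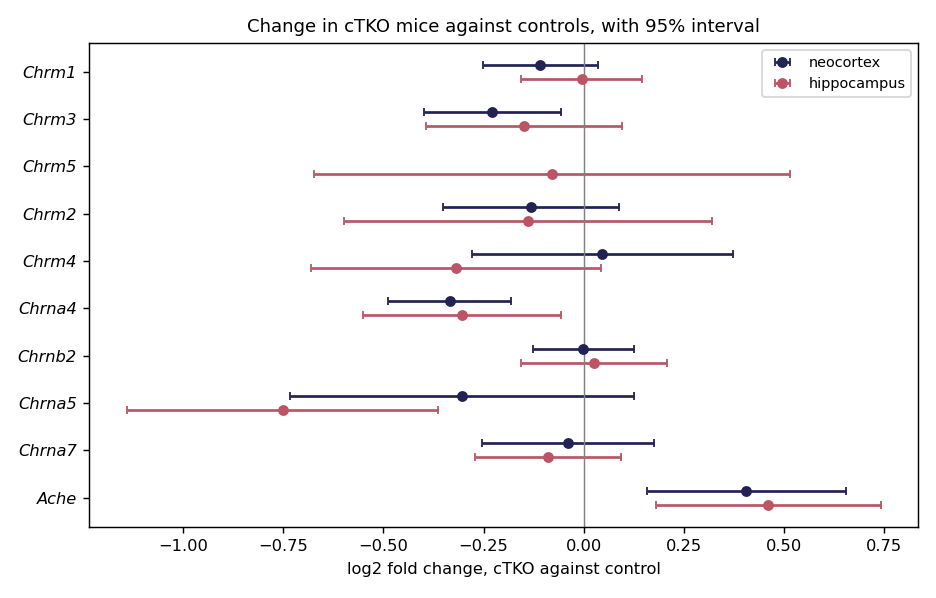
Log2 fold change of cTKO against control libraries (x axis) for each gene with its 95% interval, in neocortex (dark) and hippocampus (red). Intervals that leave out 0 are those of Chrna4, Chrm3 and Ache in neocortex and of Chrna4, Chrna5 and Ache in hippocampus, none of which passed an FDR of 0.05, and Chrm5 has no fit in neocortex.

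Whether the effect of genotype depended on region was tested as an interaction in 1 fit of the 20 libraries. Of the 10 genes, 0 passed an FDR of 0.05 and 0 had an unadjusted p under 0.05, beside 0.0564% and 3.75% of all 14192 genes, and DESeq2 and the likelihood ratio test also called 0. The largest differences between regions were -0.78 for Chrm5 (95% interval -1.85 to 0.292) and -0.44 for Chrna5, and the intervals for Chrna4 (-0.241 to 0.320) and Ache (-0.329 to 0.452) lay on both sides of 0.

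The regional comparison, hippocampus against neocortex, gave differences in most of the family. In control mice 8 of the 10 genes passed an FDR of 0.05, 4 higher in hippocampus (Chrm1, Chrm5, Chrna5 and Chrna7) and 4 lower (Chrm2, Chrm3, Chrm4 and Chrna4), beside 59.1% of all 13832 genes tested, 29.8% higher and 29.2% lower. In cTKO mice the same 8 genes passed in the same directions, beside 41.3% of 13846 genes, 20.2% higher and 21.1% lower. Regions did not overlap for all 8 in control mice, beside 44.4% of genes, and for 7 in cTKO mice, beside 28.5%. Chrm5 passed the filter on low counts only through its hippocampal libraries, and without it 7 of 9 genes passed in each genotype. A regional difference is thus common among all genes, and the counts of 8 are to be read against that. The 2 genotypes are separate sets of mice, so the cTKO values are not a refit of the control ones, though the kits differ between regions in both.

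Chrm5, known for its place on dopamine neurons and blood vessels, entered the test by region only because it was above the filter in hippocampus, so its fold and FDR are a description and not evidence of a regional difference. It stood at 3.77, 2.58, 2.5, 3.71 and 4.29 CPM in control hippocampus, where every library was above the highest control neocortex library at 0.776 CPM. The log2 fold change was 2.88 (SE 0.31, FDR = 1.35e-06 in edgeR) in control mice and 2.09 (SE 0.36, FDR = 0.000604) in cTKO mice, where hippocampus held 4.47, 3.37, 2.06, 1.72 and 4.23 CPM. The fitted fold rests on 2 to 20 counts per library in neocortex. Chrm5 also lies in a stretch of 43479 bases shared with Aven in RefSeq, while in GENCODE vM21 it overlaps no counted gene.

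Chrm1 was 1.18 times higher in hippocampus than in neocortex of control mice, the smallest of the 8 differences. Control hippocampus held 321, 307, 305, 339 and 347 CPM and control neocortex 274, 252, 283, 284 and 268 CPM, with a gap between 284 and 305. Its log2 fold change was 0.24 (SE 0.053, FDR = 0.00101 in edgeR) in control mice and 0.34 (SE 0.083, FDR = 0.00526) in cTKO mice. Chrm3 went the other way, with 45.1, 35.5, 44.3, 46.6 and 48.9 CPM in control hippocampus, all below the neocortical libraries given above. Its log2 fold change was -0.48 (SE 0.089, FDR = 0.000261) in controls and -0.41 (SE 0.10, FDR = 0.00674) in cTKO mice.

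Both receptors coupled to Gi were lower in hippocampus. Chrm2, an autoreceptor of cholinergic terminals that is also made by interneurons, was at 4.07, 2.45, 2.95, 3.47 and 3.66 CPM in control hippocampus and 9.92, 9.80, 9.96, 8.67 and 11.4 CPM in control neocortex. Every neocortical library held more than the highest hippocampal one. The log2 fold change was -1.59 (SE 0.14, FDR = 1.13e-07 in edgeR) in control mice and -1.60 (SE 0.18, FDR = 2.27e-05) in cTKO mice. Chrm4 was at 30.0, 23.2, 18.6, 23.8 and 23.3 CPM in control hippocampus, below the lowest control neocortex library at 32.9 CPM, with a log2 fold change of -0.93 (SE 0.13, FDR = 1.78e-05) in controls and -1.30 (SE 0.19, FDR = 0.000152) in cTKO mice. All 6 striatal marker genes also passed as lower in hippocampus in both genotypes, with a median log2 fold change of -2.45 in controls, and their part in the Chrm4 difference was not tested.

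The nicotinic α subunits parted by region. Chrna4 was lower in hippocampus, at the 18.5 to 25.0 CPM given above against 53.6 to 61.7 CPM in neocortex of control mice, with a log2 fold change of -1.49 (SE 0.080, FDR = 7.04e-10 in edgeR). In cTKO mice the difference was -1.46 (SE 0.11, FDR = 6.76e-07). Chrna7 was higher, with 33.2, 30.8, 26.8, 29.0 and 28.6 CPM in control hippocampus against 13.5, 15.5, 13.1, 11.8 and 12.2 CPM in control neocortex. Fitted across all genes, the log2 fold change was 1.16 (SE 0.085, FDR = 2.17e-08) in control mice and 1.11 (SE 0.097, FDR = 2.79e-06) in cTKO mice. Chrna7 counts per Chrna4 count were therefore 0.231 ± 0.0229 in control neocortex and 1.46 ± 0.112 in control hippocampus, and 0.287 ± 0.0476 and 1.69 ± 0.105 in cTKO mice.

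Chrna5 was higher in hippocampus by a log2 fold change of 1.34 (SE 0.16, FDR = 3.78e-06 in edgeR) in control mice, where hippocampus held at least 5.77 CPM and neocortex at most 3.87 CPM. In cTKO mice the difference was 0.88 (SE 0.21, FDR = 0.00544), and the lowest hippocampal library, at 3.61 CPM, fell below the highest neocortical one, at 3.71 CPM. It was the 1 gene of the 8 whose regions overlapped in cTKO mice.

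Chrnb2 and Ache were the 2 genes with no call by region. Chrnb2 was at 71.4, 67.1, 59.2, 66.9 and 66.9 CPM in control hippocampus and 70.8, 69.2, 70.1, 73.3 and 74.0 CPM in control neocortex, so that 4 of the 5 hippocampal libraries lay below all neocortical ones. The log2 fold change was -0.11 (SE 0.053, FDR = 0.0757 in edgeR; exact permutation p = 0.0317), and the FDR was 0.0353 without control hippocampus library 1. In cTKO mice it was -0.09 (SE 0.091, FDR = 0.459). Without cTKO hippocampus library 4 the latter was -0.0457. For Ache the intervals were -0.229 to 0.0951 in control mice and -0.357 to 0.330 in cTKO mice, where the log2 fold change of -0.0136 became 0.0382 without cTKO hippocampus library 4 and -0.127 without cTKO neocortex library 5.

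**Figure D5:**
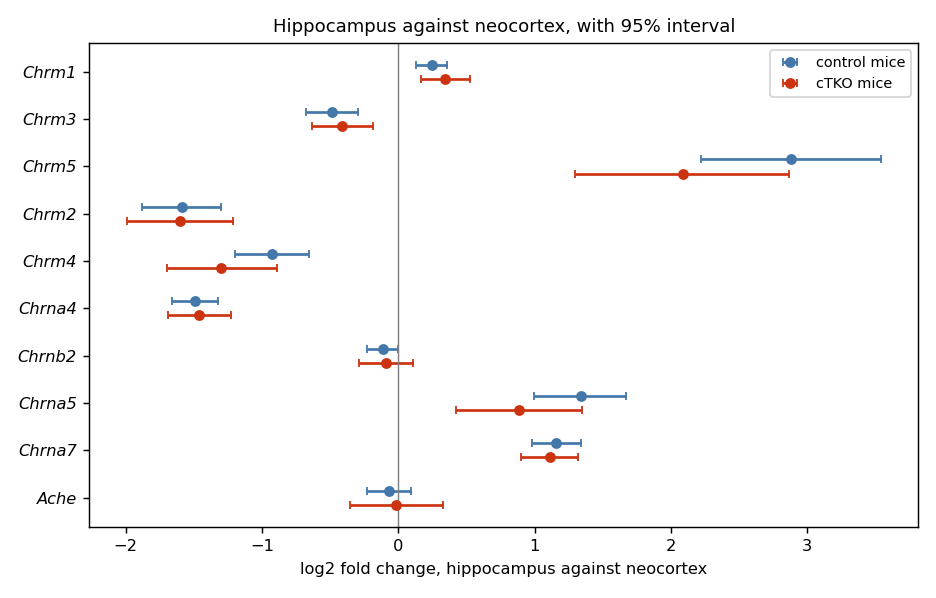
Log2 fold change of hippocampus against neocortex (x axis) with its 95% interval for each gene, in control mice (blue) and cTKO mice (red). Chrm1, Chrm5, Chrna5 and Chrna7 lie above 0, Chrm2, Chrm3, Chrm4 and Chrna4 below 0 and Chrnb2 and Ache near 0, in both genotypes.

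Other tissue moved with region too. Choroid plexus markers, 5 genes, summed to 72.2 to 2650 CPM in control hippocampus and 108 to 584 CPM in cTKO hippocampus against at most 16.2 CPM in neocortex, and astrocyte markers to at least 1870 CPM in hippocampus against at most 1490 CPM in neocortex. Markers of inhibitory neurons were lower in hippocampus for 4 of 6 genes in each genotype. Their part in the regional receptor differences was not tested.

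The rest of the cholinergic pathway was taken as 54 further genes in 6 lists, of which 53 were in the files. In neocortex 34 could be tested by genotype and 0 passed an FDR of 0.05 in edgeR, beside 0.188% of all genes. Of the 34, 8 had an unadjusted p under 0.05, beside 10.4% of all genes. In hippocampus 30 could be tested and 6 had an unadjusted p under 0.05, beside 12% of all genes. Only 1 of the 30 passed an FDR of 0.05, beside 0.489% of all genes, and it rose. This was Rgs4, whose product speeds the turning off of Gq and Gi signals, at 183 ± 14.2 CPM in control and 307 ± 70.8 CPM in cTKO hippocampus (log2 fold change 0.75, SE 0.13, FDR = 0.0236) with no overlap. In neocortex it was at 495 ± 46.8 and 505 ± 53.0 CPM (log2 fold change 0.03, SE 0.078), and the interaction had an FDR of 0.163.

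By list, genotype medians stayed near those of all genes where many members could be tested. For 17 muscarinic effectors (G protein α subunits, phospholipase C, channels and RGS proteins) the median log2 fold change was -0.07 in neocortex and 0.00 in hippocampus, beside 0.0090 and 0.0049 over all genes. For 8 nicotinic receptor chaperones and Ly6 modulators it was -0.02 and -0.05. Of the receptor genes themselves, Ache left out, it was -0.12 in neocortex, with 7 of 8 values below 0, and -0.14 in hippocampus, with 8 of 9 below 0. With Ache, which was above 0 in both, these were 7 of 9 and 8 of 10. Of the values below 0, those of Chrna7 and Chrnb2 in neocortex and of Chrm1 and Chrm5 in hippocampus changed sign when 1 library was left out. The genes were measured in the same libraries, so the counts are a description and not a test.

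Of the other nicotinic subunits 12 were looked up and 11 were below the filter in neocortex and in hippocampus by genotype. The one tested in neocortex was Chrnb3, at a mean of 2.84 CPM in control and 3.12 CPM in cTKO libraries (log2 fold change 0.12, SE 0.22), and the one tested in hippocampus was Chrna1, at 1.59 and 2.09 CPM (log2 fold change 0.39, SE 0.23). Among the rest, Chrna3 had group means of at most 0.689 CPM. Chrna2 was at 0.619 ± 0.0493 CPM in control and 1.26 ± 0.464 CPM in cTKO neocortex, with libraries at 0.556 to 0.657 and 0.741 to 1.81 CPM. These values rest on 7 to 40 counts per library, and the gene was below the filter, so the difference was not tested. In hippocampus Chrna2 was at 0.386 and 0.356 CPM.

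Genes of the cholinergic neuron itself were near the floor in hippocampus. Chat, the enzyme that makes acetylcholine, was at 1.84 ± 0.418 CPM in control and 2.54 ± 1.21 CPM in cTKO neocortex, with 0 to 6 counts per hippocampal library. Slc18a3, the vesicular transporter of acetylcholine, was at 0.780 ± 0.424 and 1.16 ± 0.405 CPM in neocortex and had 0 to 3 counts in hippocampus. Slc5a7, which takes up choline at terminals, was at 4.03 ± 1.47 and 5.82 ± 2.06 CPM in neocortex and at 0.703 ± 0.239 and 0.656 ± 0.166 CPM in hippocampus. In neocortex the log2 fold changes by genotype were 0.49 (SE 0.30), 0.59 (SE 0.38) and 0.53 (SE 0.28) for Chat, Slc18a3 and Slc5a7, with FDRs of 0.614, 0.631 and 0.538, and the 3 genes failed the filter by genotype in hippocampus. With Lhx8 they summed to 7.09, 10.6, 5.84, 8.6 and 3.68 CPM in control and 12.6, 15.5, 9.31, 6.68 and 7.86 CPM in cTKO neocortex. The striatal sums given above ran in a like order. Control library 5 was the lowest control in both, and cTKO library 2 the highest and 4 the lowest cTKO. The highest control was library 2 here and library 4 in striatal genes. The part of striatal tissue in these values, by genotype or by region, was not tested.

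By region, 27 of the 34 further genes tested passed in control mice, 12 higher and 15 lower in hippocampus, and 18 of 35 passed in cTKO mice, 7 higher and 11 lower, to be read against the 59.1% and 41.3% of all genes given above. Among called genes, the largest falls toward hippocampus in control mice were those of Chat (log2 fold change -4.06), Chrnb3 (-3.62), Slc5a7 (-2.54) and Plcb4 (-2.07), the last a phospholipase C of the Gq pathway. In cTKO mice they were those of Chrnb3 (-4.07), Chat (-3.94), Slc5a7 (-3.15) and Plcb4 (-1.70). Chat, Chrnb3 and Slc5a7 passed the filter only through neocortex, so their falls are a description. The values of Chat and Chrnb3 rest on hippocampal levels of at most 0.232 CPM on average, so that the fitted folds depend on the prior count.

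Among called genes, the largest rises toward hippocampus in control mice were those of Chrna1 (1.43), a muscle subunit at 1.59 ± 0.426 CPM, and of the Ly6 genes Ly6g6e (0.61), Lypd1 (0.46) and Ly6h (0.41), whose products bind nicotinic receptors. In cTKO mice they were those of Chrna1 (1.87) and of 3 parts of the muscarinic effector list, Gnai3 (0.38), Gnaq (0.34) and Kcnj3 (0.33). Chrna1 passed the filter only through hippocampus, with 6 to 15 counts per control neocortex library, so its rise is a description too. Lypd1 and Ly6h were at 0.29 (SE 0.14, FDR = 0.121) and 0.27 (SE 0.15, FDR = 0.159) there.

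The genes whose log2 CPM over the 20 libraries ran most like each receptor gene were ranked by Pearson's r among 14192 genes. Most of these correlations hold the regional difference, which the points share, so the r of the deviations from the group means is given second. Chrna4 ran with Lamp5 (0.986, within groups 0.495) and Pld5 (0.983, 0.518), Chrna7 with Nr3c2 (0.983, 0.548) and Nrip3 (0.980, 0.481), and Chrna5 with Bcl6 (0.937, 0.580) and Trpc5 (0.934, 0.676). Chrm2 ran with Pde4d (0.987, 0.814) and Phf24 (0.979, 0.688), Chrm4 with Cntn3 (0.952, 0.774) and Coro2a (0.951, 0.742), and Chrm5 with Wscd2 (0.934, 0.615) and Serpina3g (0.934, 0.659).

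Chrm1 ran with Kcnn2 (0.944, 0.780), a calcium-activated potassium channel, and Chrm3 with Ift172 (0.941, 0.793) and Magi3 (0.913, 0.718). For the 2 genes without a regional call the pooled and within-group values were close, at 0.907 and 0.910 for Chrnb2 with Nicn1, at 0.812 and 0.831 for Chrnb2 with Spock2, at 0.885 and 0.806 for Ache with Hars and at 0.879 and 0.802 for Ache with Podxl2. Among the 10 genes themselves, Chrm4 with Chrna4 had 0.907 over the libraries and 0.529 within groups, and Chrna4 with Chrnb2 had 0.423 and 0.135.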

How the data were processed

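Poly(A) RNA of neocortex and hippocampus was sequenced by the study, and the authors aligned the reads to mm10 with STAR 2.5.4a, counted them on genes with HTSeq (version, annotation and strand setting not given in the sources used here) and deposited raw counts per gene and library. From these counts, edgeR 4.0.16 (R 4.3.3) was run here with TMM scaling, genes above 1 CPM in at least 5 libraries of a fit, the quasi-likelihood test and Benjamini-Hochberg adjustment over all genes tested. SE is the log2 fold change over the root of F. Single genes were also compared by two-sided exact permutation tests of log2 CPM (prior count 2). RPKM used exon lengths of GENCODE vM21. The fit was tested on simulated data. DESeq2 1.42.0, other edgeR tests, other filters and scalings, and leaving out each library were alternatives.

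The genes and lists were chosen with earlier results of these data known. Named were the 10 genes, targeted genes, genes of the lists called by genotype, the 4 largest regional changes each way, Chat, Slc18a3, Slc5a7, Bche and the 2 most similar genes (1 of these, for Chrm1, is not reported here). Chrna2, Chrna3, Chrna1 and Chrnb3 by genotype, Ly6g6e by genotype and Plcb4 by genotype were named after their values were seen. Chi-square values per gene between libraries of a group were 3.82 to 46.1, so none was a duplicate. Library numbers paired the regions in control mice, where all 5 same-numbered pairs correlated over 0.1 (0.124 to 0.335).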

Additional observations from a re-analysis of the deposited data

Results flagged for a closer look

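Each of the 10 genes was checked in each of the 4 groups for a library far from the others, 40 checks in all, of which chance flags about 1 in 20. For 2 the gap to the nearest library passed Dixon's 95% limit. Chrm3 in control neocortex library 1 was at 74.3 CPM with the other 4 at 56.4 to 61.3 CPM, a gap of 0.725 of the range, and this library raised the control mean that the cTKO neocortex was set against. Chrna5 in control neocortex library 3 was at 3.87 CPM with the others at 2.93 to 3.03 CPM, a gap of 0.891 of the range.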

How the results depend on the processing

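The 16 regional calls kept direction and side of the threshold in all 321 refits, but Chrm5 failed the filter whenever 1 control hippocampus library was left out, leaving 7 called genes, or 8 where Chrnb2 was then called. By genotype, members called were 1 in neocortex with the exact test, likelihood ratio test and DESeq2, and 2 in hippocampus with the same, or 1 in one fit of all libraries. All genes called by genotype in neocortex (26 as reported) were 163, 167 and 221 with those tools, 42 with no filter, 17 in one fit and 12 with the replicate block. In hippocampus (67) they were 258, 259, 331 and 195 in one fit, and for the interaction (8) 26 with the likelihood ratio test, 26 with DESeq2 and 18 with the block. Leaving out a library gave 7 (control library 1) to 133 genes (cTKO library 5) in neocortex, 15 (control library 4) to 149 (cTKO library 5) in hippocampus and 5 (control hippocampus library 1) to 20 (cTKO hippocampus library 5) for the interaction, and 0 to 1 members in neocortex. The cause was not tested. The pairing of library numbers (block) changed no member call.

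Changes near 0 reversed. For Ache by region in cTKO mice the values were 0.00322 with filterByExpr and 0.00139 with no filter. For the Chrm2 interaction they were -0.000568 with DESeq2 size factors, -0.00245 with no filter, -0.0224 with the replicate block and -0.00607 without both embryonic-marked libraries, an alternative added after seeing the data, which gave -0.00609 for the Ache interaction. Leaving out a library gave -0.0647 to 0.132 for Chrm4, -0.076 to 0.0234 for Chrna7 and -0.0356 to 0.0324 for Chrnb2 in neocortex, and -0.0415 to 0.0244 for Chrm1, -0.239 to 0.0704 for Chrm5 and -0.0389 to 0.0618 for Chrnb2 in hippocampus. It gave -0.127 to 0.0649 for Ache by region in cTKO mice, and for the interaction -0.177 to 0.0963 for Chrm2, -0.0402 to 0.120 for Chrna4, -0.0309 to 0.0695 for Chrnb2 and -0.0594 to 0.139 for Ache. Other uncalled changes by genotype kept their sign but moved by over 1.5 times when a library was left out, to -0.138 to -0.0583 for Chrm1, -0.175 to -0.0826 for Chrm2 and -0.484 to -0.214 for Chrna5 in neocortex and -0.317 to -0.0445 for Chrm2, -0.219 to -0.0673 for Chrm3, -0.42 to -0.21 for Chrm4 and -0.134 to -0.0472 for Chrna7 in hippocampus. Depth limits Chrm5 in neocortex and Chat and Slc18a3 in hippocampus.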

Other observations

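Among the Ly6 genes, Ly6g6e, whose product binds nicotinic receptors, was named after its values were seen. It was at 1.51 ± 0.268 CPM in control and 8.51 ± 7.74 CPM in cTKO neocortex (log2 fold change 2.51, SE 0.53, FDR = 0.0852 in edgeR), where libraries ran from 1.41 to 21.6 CPM. In hippocampus it was at 2.30 ± 0.360 and 7.51 ± 3.84 CPM (log2 fold change 1.7, SE 0.38, FDR = 0.0833), from 1.82 to 11 CPM in cTKO libraries. The genotypes overlapped in both regions, since at least 1 cTKO library stood at the control level.

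Plcb4 had separate genotypes in neocortex, at 70.8 ± 7.42 CPM among controls and 52.4 ± 5.30 CPM in cTKO mice (log2 fold change -0.43, SE 0.087, FDR = 0.0712 in edgeR), and was at 17.0 ± 1.77 and 16.3 ± 2.26 CPM in hippocampus.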
